A study of Mus musculus with 8 samples.

Results

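The loss of NFIB was compared directly with the loss of NFIX in mouse hair follicle stem cells, by RNA sequencing. The comparison used 4 of the 8 libraries of the series, chosen by their titles: NFIB-cKO 81 and NFIB-cKO 85 against NFIX-cKO 32 and NFIX-cKO 88. Every gene was eligible. The table held 46517 genes, of which 15434 reached 1 TPM (a transcript abundance corrected for length that sums to the same total in each library) in at least 2 libraries and were tested. All animals were males aged 70 days after birth, in the second resting phase of the hair cycle, and the number in each title is the animal's, so each library was taken as a separate mouse. All knockouts carried Sox9-CreER and R26-YFPfl/fl. To these the NFIB-cKO mice added NFIBfl/fl, and the NFIX-cKO mice NFIXfl/fl together with NFIBfl/+, so that 1 of their Nfib alleles was floxed too. In both, a Cre recombinase driven from Sox9 deletes floxed alleles once induced and switches on YFP, and cells were gated on YFP as well as on integrin α6 and CD34 without Sca-1. The remaining libraries served as reference: WT 34 and WT 82, with both genes floxed (NFIBfl/fl and NFIXfl/fl) and R26-YFPfl/fl but no Cre listed and no YFP gate, and NFIB/X-dKO 33 and 36, with both genes floxed and Cre. Since both single knockouts carried Cre and passed the YFP gate, this is a contrast in which neither Cre nor the gate differs between the groups.

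NFIB and NFIX are nuclear factor I proteins, transcription factors that bind DNA as dimers at a palindrome of TTGGC and GCCAA with 5 bases of any kind between them and, more weakly, at TTGGC alone. Hair follicle stem cells rest in the bulge of the follicle between growth phases, and the stem cells of the adjoining hair germ start the next hair. The bulge cells are known for CD34, integrin α6 and keratin 15 and for the transcription factors SOX9 and LHX2, and their progeny can form the hair lineages, the sebaceous gland and, after wounding, epidermis.

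The 4 libraries were not equally alike within groups. Across all genes tested, the log2 TPM of the NFIB-cKO pair correlated at 0.9785 and that of the NFIX-cKO pair at 0.9616, whereas NFIX-cKO 88 correlated at 0.9708 and 0.9741 with NFIB-cKO 81 and 85. NFIX-cKO 32 correlated at 0.9537 and 0.9448 with them. These are correlations across genes, which are not independent replicates. The animal numbers of both NFIB-cKO mice and of NFIX-cKO 88 are in the 80s and that of NFIX-cKO 32 is in the 30s, so results are also given against NFIX-cKO 88 alone. Expected count totals in the 5 libraries with gene tables ran from 57173266 to 66854625, and the depth of NFIB-cKO 81, WT 34 and WT 82 was unknown.

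The markers of the sorted cells were present in all 4 libraries. Keratin 15 (Krt15) read 13202 and 8967 TPM in NFIB-cKO 81 and 85 and 13838 and 14487 in NFIX-cKO 32 and 88. Cd34 read 1024 and 811 TPM against 1079 and 1072, and Itga6, which encodes integrin α6, 188 and 162 against 167 and 134. Both NFIB-cKO libraries were lower for Krt15 and Cd34, and the groups overlapped for Itga6. None of the 3 passed the test described next (adjusted p = 0.515, 0.622 and 0.64). Of the targeted genes, neither differed past the test in total: Nfib read 293 and 233 TPM in NFIB-cKO and 200 and 148 in NFIX-cKO (log2 difference 0.60 ± 0.18 SE, adjusted p = 0.337). Nfix read 154 and 147 TPM in NFIB-cKO and 138 and 123 in NFIX-cKO (0.20 ± 0.13, adjusted p = 0.586). For both genes the NFIB-cKO libraries were the higher ones, so Nfix, but not Nfib, was lower in the group named after it. The labels do not name the deleted exons, and what remains of a transcript is still counted, so neither total checks a label. Nfia and Nfic, the other members of the family, read 14.5 and 11.9 against 11.4 and 8.62 TPM, and 33.8 and 30.8 against 36.9 and 25.8 TPM, and did not pass either (adjusted p = 0.475 and 0.948). Esr1 (31.8 and 32.4 against 15.1 and 26.1 TPM, adjusted p = 0.446) can take reads from the CreER transgene, and the WT libraries without Cre read 0.47 and 0.33 TPM.

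The direct comparison asked which genes differ between cells without NFIB and cells without NFIX. In the limma fit, 19 of 15434 genes passed (0.123%), 9 of them higher in NFIB-cKO (0.0583%) and 10 lower (0.0648%). Only 7 of the 19 were protein coding: Smtn, Timp3, Mest and Tnc were higher in NFIB-cKO, and Krt24, Rarres1 and Cyp4b1 were lower. The other 12 were 5 short genes annotated as microRNA, 6 processed pseudogenes and 1 long intergenic RNA. Changes are differences of log2(TPM + 1), NFIB-cKO minus NFIX-cKO, ± SE, and adjusted p values are Benjamini-Hochberg values of that fit over all genes tested, called below 0.05. At an unadjusted p under 0.05 the test counted 1342 genes higher (8.7%) and 497 lower (3.22%). By comparison, the same fit called, relative to WT, 111 genes in NFIB-cKO (0.719%), 23 genes in NFIX-cKO (0.149%) and 445 genes in the double knockout NFIB/X-dKO (2.88%). These WT comparisons share the WT libraries with each other, and the first 2 share the knockout libraries with the direct one. With 2 mice per group, p-values measure only the spread among these libraries. In sorted bulk RNA, fewer cells of a type and less RNA per cell cannot be told apart.

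**Figure D1:**
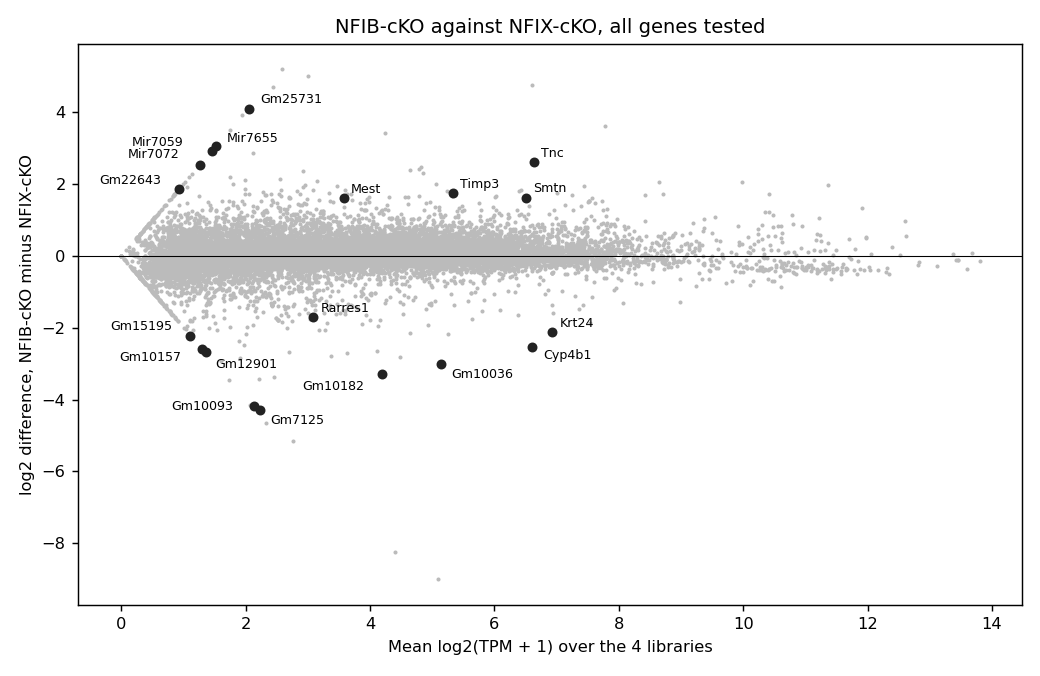
Each point is 1 of the 15434 genes tested, with the mean log2(TPM + 1) over the 4 libraries on the horizontal axis and the log2 difference, NFIB-cKO minus NFIX-cKO, on the vertical axis. Black points with names are the 19 genes past the test, and several grey points lie farther from 0 without passing.

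Smtn encodes smoothelin, an actin-binding protein of contractile cells. Its level was 151 and 166 TPM in NFIB-cKO 81 and 85 and 53.2 and 49.5 in NFIX-cKO 32 and 88. WT stood between the knockouts at 85.6 and 80.3 TPM, and NFIB/X-dKO at 103 and 86.3, with no overlap between NFIB-cKO and any other group. The means of 158 ± 10.6 (SD, n = 2) and 51.3 ± 2.61 TPM (SD, n = 2) differed 3.09-fold, and the log2 difference was 1.61 ± 0.13 (limma adjusted p = 0.00899). Against WT, NFIB-cKO differed by 0.92 (adjusted p = 0.0375) and NFIX-cKO by -0.68 (adjusted p = 0.254), 2 values that share the WT libraries. Markers of muscle and fat cells did not accompany it: all 10 of that list, with Acta2 and Des among them, were below 1 TPM in each of the 4 libraries.

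Among genes of the extracellular matrix, Tnc and Timp3 rose in NFIB-cKO relative to NFIX-cKO. Tnc encodes tenascin-C, a matrix glycoprotein, and read 282 and 209 TPM in NFIB-cKO against 52.6 and 29.1 in NFIX-cKO. WT read 45.9 and 40.6 TPM, within the range of NFIX-cKO, and NFIB/X-dKO 143 and 170. The group means were 245 ± 51.8 (SD, n = 2) and 40.8 ± 16.6 TPM (SD, n = 2), a 6.01-fold difference, and the log2 difference was 2.60 ± 0.28 (limma adjusted p = 0.0299). Timp3, which encodes a matrix-bound inhibitor of metalloproteinases, read 81.7 and 64.0 TPM in NFIB-cKO and 22 and 19.96 in NFIX-cKO. WT, at 18.2 and 23.5 TPM, again overlapped NFIX-cKO, and NFIB/X-dKO was the highest group at 106 and 123. The means were 72.8 ± 12.5 (SD, n = 2) and 21 ± 1.42 TPM (SD, n = 2), 3.47-fold apart, with a log2 difference of 1.74 ± 0.19 (limma adjusted p = 0.0299). Against WT, Tnc differed by 2.46 in NFIB-cKO (adjusted p = 0.0178) and -0.14 in NFIX-cKO (adjusted p = 0.985), and Timp3 by 1.76 (adjusted p = 0.0152) and 0.02 (adjusted p = 0.998).

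Mest, an imprinted gene expressed from the paternal allele, was low in every group but NFIB/X-dKO. It read 18.1 and 21.6 TPM in NFIB-cKO and 5.31 and 6.45 in NFIX-cKO. The order of the groups was WT (2.17 and 2.52 TPM), NFIX-cKO, NFIB-cKO and NFIB/X-dKO (68.1 and 66.1 TPM), with no overlap between neighbours. The means of the single knockouts, 19.8 ± 2.52 (SD, n = 2) and 5.88 ± 0.806 TPM (SD, n = 2), differed 3.37-fold, and the log2 difference was 1.60 ± 0.17 (limma adjusted p = 0.0299). Against WT the differences were 2.64 in NFIB-cKO (adjusted p = 0.0022) and 1.04 in NFIX-cKO (adjusted p = 0.152). Of 17 imprinted genes measured, Mest was the 1 that rose and 0 fell. Another 3 with small p, Igf2r (19.6 and 18.2 against 13.3 and 11.8 TPM), the cell cycle inhibitor gene Cdkn1c (3.20 and 3.55 against 5.53 and 5.69 TPM) and Slc22a18 (25.7 and 20.9 against 16.5 and 16.9 TPM), did not pass (adjusted p = 0.306, 0.361 and 0.375).

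Of the genes lower in NFIB-cKO, Krt24 encodes a type I keratin of the bulge. It read 46.0 and 71.1 TPM in NFIB-cKO and 248 and 261 in NFIX-cKO, below 460 and 353 in WT. NFIB/X-dKO read 26.7 and 28.6 TPM, the lowest of the 4 groups, and no groups overlapped. The means were 58.5 ± 17.7 (SD, n = 2) and 254 ± 9.27 TPM (SD, n = 2), 4.34-fold apart, and the log2 difference was -2.13 ± 0.22 (limma adjusted p = 0.0294). Against WT, Krt24 fell by 2.80 in NFIB-cKO (adjusted p = 0.00505), and its NFIX-cKO difference of -0.66 did not pass (adjusted p = 0.626).

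Rarres1, first found as a gene that responds to retinoic acid, read 3.81 and 3.57 TPM in NFIB-cKO and 16.1 and 12.7 in NFIX-cKO. WT was higher at 26.5 and 27.4 TPM, and NFIB/X-dKO lay between the single knockouts at 8.88 and 7.16. The means of 3.69 ± 0.17 (SD, n = 2) and 14.4 ± 2.42 TPM (SD, n = 2) were 3.91-fold apart, with a log2 difference of -1.71 ± 0.18 (limma adjusted p = 0.0299). Cyp4b1, a cytochrome P450 gene, read 36.1 and 43.5 TPM in NFIB-cKO and 235 and 233 in NFIX-cKO, the latter between the WT values of 272 and 134. NFIB/X-dKO was close to NFIB-cKO at 48.8 and 50.02 TPM. The means were 39.8 ± 5.26 (SD, n = 2) and 234 ± 1.1 TPM (SD, n = 2), 5.87-fold apart, with a log2 difference of -2.53 ± 0.30 (limma adjusted p = 0.0466). Against WT, Rarres1 differed by -2.57 in NFIB-cKO (adjusted p = 0.00329) and -0.87 in NFIX-cKO (adjusted p = 0.311), and Cyp4b1 by -2.24 (adjusted p = 0.029) and 0.29 (adjusted p = 0.934).

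**Figure D2:**
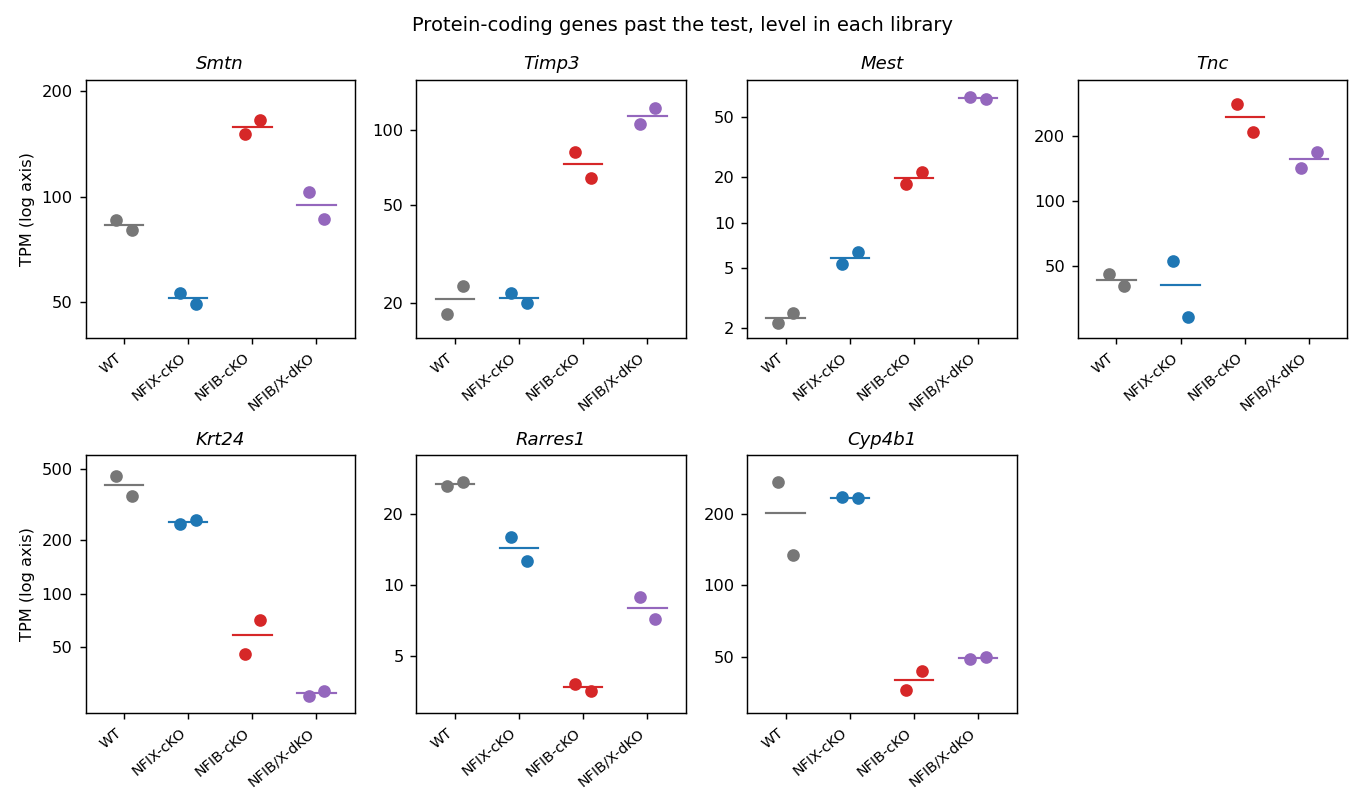
Level of the 7 protein-coding genes past the test, in TPM on a logarithmic axis with its own range in each panel. Points are libraries, in the order of their animal numbers within a group, and bars are group means. The NFIB-cKO and NFIX-cKO points are apart in every panel, and on this axis, for all but Rarres1, the WT mean lies nearer to NFIX-cKO and the NFIB/X-dKO mean nearer to NFIB-cKO.

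The 7 genes lie at these positions on mm10: Smtn on chromosome 11 (3517523 to 3540612), Timp3 on 10 (86300372 to 86349506), Mest on 6 (30723547 to 30748465), Tnc on 4 (63959785 to 64047015), Krt24 on 11 (99279959 to 99285262), Rarres1 on 3 (67478972 to 67515523) and Cyp4b1 on 4 (115624725 to 115647723). In GENCODE M21, exons of 4 of them overlap exons on the opposite strand: Tnc those of 8030451A03Rik, Timp3 those of Syn3, Smtn those of Gm11946 and Gm11947, and Mest those of Copg2. Strand-aware counting is not given in the sources used here, so such reads may be shared. Of these partners Copg2 read 46.6 and 43.9 TPM in NFIB-cKO and 53.5 and 41.0 in NFIX-cKO, and the others were at most 2.51 TPM in any library.

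How firm each call is depends on the libraries in the fit. All 7 differences kept their sign in every limma alternative run. Since the compared groups did not overlap for these genes, leaving out a library could not reverse a sign, so this is no support. Against NFIX-cKO 88 alone the differences were 1.66 for Smtn (adjusted p = 0.0389), 3.02 for Tnc (adjusted p = 0.0195), 1.81 for Timp3, 1.48 for Mest, -2.17 for Krt24, -1.55 for Rarres1 (each adjusted p = 0.0968) and -2.53 for Cyp4b1 (adjusted p = 0.158). Without NFIX-cKO 88 the calls of Timp3 (adjusted p = 0.071), Krt24 (0.0648) and Cyp4b1 (0.082) ended. Without NFIB-cKO 85 none of the 7 passed, with adjusted p values of 0.139 for Smtn and Timp3, 0.0676 for Krt24, 0.173 for Tnc and 0.222 for the other 3. Without NFIB-cKO 81 they were 0.0911 for Smtn, 0.0947 for Krt24, 0.167 for Mest, 0.276 for Timp3 and Rarres1, 0.322 for Tnc and 0.35 for Cyp4b1. Leaving out NFIB/X-dKO 33 ended all of the calls but that of Smtn, with adjusted p values of 0.0988 for Krt24 and Tnc, 0.108 for Timp3, 0.115 for Rarres1, 0.152 for Cyp4b1 and 0.179 for Mest, and leaving out NFIB/X-dKO 36 did the same (0.0989 to 0.18). Without WT 34 the calls of Tnc (0.0636) and Rarres1 (0.0538) ended, and without WT 82 likewise (0.0629 and 0.0542). With only the 4 compared libraries in the fit, Cyp4b1 alone of the 7 passed (adjusted p = 0.043), with 0.101 for Smtn, 0.165 for Timp3, 0.222 for Krt24 and 0.283 for the other 3. With the series of the animal numbers (30s or 80s) as a covariate, the calls of Timp3 and Cyp4b1 (both 0.0789), Krt24 (0.0823) and Rarres1 (0.0521) ended. With no filter on low values Smtn alone passed, and the others had adjusted p values from 0.0704 for Mest to 0.187 for Cyp4b1. Median-of-ratios scaling ended the calls of Timp3 (0.0834), Mest (0.0977) and Krt24 (0.053), and a pseudocount of 0.1 that of Cyp4b1 (0.0615).

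Expected counts gave another reading of the same genes, though only NFIB-cKO 85 represents NFIB-cKO there and is assumed to vary like the other libraries. EdgeR called none of the 7 (adjusted p from 0.198 to 0.253), with 2045 of 19675 genes at an unadjusted p under 0.05. DESeq2 gave log2 differences from -2.39 for Cyp4b1 to 2.40 for Tnc. On counts simulated with dispersions estimated by edgeR, DESeq2 made more false calls than edgeR. Limma was run on separately simulated levels, so its false calls cannot be set against these. The log2 differences by edgeR were 1.74 for Smtn, 1.62 for Timp3, 2.11 for Mest, 2.40 for Tnc, -1.84 for Krt24, -2 for Rarres1 and -2.40 for Cyp4b1.

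The promoters of the genes named by the naming rule were searched for the nuclear factor I motif, since both deleted factors bind it. RefSeq windows on GRCm38.p6, from 250 bases before to 50 bases after a start, were found for 14 of 17 such genes. The palindrome, TTGGC and GCCAA with any 5 bases between, was in 0 of their windows, and it is in 0.0365% of all 32851 windows of 300 bases. The single motif TTGGC, on either strand and also contained in the palindrome, was in a window of 6 genes: Tnc, Smtn, Gpx2, Krt24, Ces2g and Steap4. Counted by window, it was in 6 of the 17 windows of these 14 genes, and it is in 46.7% of all windows. The stretches of 250 bases before the start of Smtn and of Krt24, one gene higher and one lower in NFIB-cKO, are shown with TTGGC and its reverse complement GCCAA in capitals. The Smtn stretch is chr11:3539293-3539542 (minus strand) and has matches that begin 211, 27 and 13 bases before a start that lies inside the GENCODE gene. The Krt24 stretch is chr11:99285263-99285512 (minus strand) and has matches that begin 189 and 21 bases before the start, the second on the opposite strand. A match describes letters in a window and is no evidence of binding.
Smtn: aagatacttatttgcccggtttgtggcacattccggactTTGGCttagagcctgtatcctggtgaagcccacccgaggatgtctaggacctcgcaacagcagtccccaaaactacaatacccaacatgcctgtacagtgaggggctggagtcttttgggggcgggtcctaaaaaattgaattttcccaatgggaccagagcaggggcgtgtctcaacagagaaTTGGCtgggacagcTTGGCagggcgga
Krt24: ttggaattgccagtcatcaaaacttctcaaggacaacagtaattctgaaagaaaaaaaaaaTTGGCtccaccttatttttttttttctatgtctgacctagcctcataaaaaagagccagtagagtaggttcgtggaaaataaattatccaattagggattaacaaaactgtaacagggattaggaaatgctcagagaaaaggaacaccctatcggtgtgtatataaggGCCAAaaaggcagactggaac

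Beyond the calls, 5 genes per direction were named by the smallest p that met the other conditions of the naming rule, and none of these passed. On the higher side, Col1a1, a chain of type I collagen, read 77.3 and 55.1 TPM in NFIB-cKO and 14.6 and 8.27 in NFIX-cKO (2.46 ± 0.30, adjusted p = 0.0531). It did pass against NFIX-cKO 88 alone (2.84, adjusted p = 0.0376). WT read 12.2 and 16.6 TPM and NFIB/X-dKO 53.3 and 65.1, so WT was near NFIX-cKO and NFIB/X-dKO near NFIB-cKO. Its partner chain Col1a2 did not go with it, at 9.22 and 3.26 TPM in NFIB-cKO and 10.6 and 33.6 in NFIX-cKO (adjusted p = 0.379). Of the 12 fibroblast and dermal papilla markers, which include both collagen genes, 7 were below 1 TPM in all 4 libraries. The list summed to 323 and 289 TPM in NFIB-cKO and 254 and 231 in NFIX-cKO. That sum contains the Col1a1 values themselves, so it is no separate measure of such cells. Its largest part, Col6a1, read 146 and 144 TPM in NFIB-cKO and 143 and 123 in NFIX-cKO. The part of such cells in the Col1a1 value was not tested.

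Egfl6, a matrix protein that the bulge deposits around its cells, read 291 and 260 TPM in NFIB-cKO and 131 and 143 in NFIX-cKO (1 ± 0.13, adjusted p = 0.0762). Gabarapl1, an autophagy gene, read 132 and 127 against 70.2 and 56.0 TPM (1.03 ± 0.14, adjusted p = 0.0858). Gpx2, a glutathione peroxidase gene, read 125 and 103 against 35.6 in both NFIX-cKO libraries (1.64 ± 0.22, adjusted p = 0.0858). In all 3 genes NFIB/X-dKO lay near NFIB-cKO: 284 and 292 TPM for Egfl6, 117 and 109 for Gabarapl1, and 96.1 and 97.4 for Gpx2. WT lay below NFIX-cKO in each, at 85.6 and 101, 52.2 and 51.1, and 16.4 and 26.9 TPM. Hoxaas2, an antisense RNA of the HoxA cluster whose reads cannot be told from its partner's without strand, read 30.02 and 19.4 against 9.06 and 7.31 TPM (1.46 ± 0.22, adjusted p = 0.122).

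On the lower side, Ces2g, of the carboxylesterase 2 family whose similar copies can share reads, read 28.6 and 20.9 TPM in NFIB-cKO and 64.9 and 64.8 in NFIX-cKO (-1.37 ± 0.17, adjusted p = 0.0555). Here WT, at 35.2 and 31.6 TPM, lay between the knockouts without overlap, a pattern met by 84 genes tested (0.544%), with its mirror image in 335 (2.17%), Smtn among them. Steap4, a metalloreductase gene, read 36.7 and 35.9 against 86.2 and 85.2 TPM (-1.22 ± 0.17, adjusted p = 0.0858). Elovl4, an elongase of very long fatty acids, read 19.9 and 17.5 against 50.8 and 47.9 TPM (-1.36 ± 0.19, adjusted p = 0.0911). Serpina9, a serpin gene from a cluster of related genes, read 0.56 and 0.83 against 6.37 and 5.15 TPM (-1.99 ± 0.28, adjusted p = 0.091). Cck, which encodes the peptide hormone cholecystokinin, read 0.27 and 0.55 against 14.0 and 5.73 TPM (-2.84 ± 0.42, adjusted p = 0.112). For these 4 genes NFIB-cKO and NFIB/X-dKO were the low groups. WT was above NFIX-cKO for Elovl4 (69.8 and 98.2 TPM) and Cck (63.2 and 35.2 TPM) and overlapped it for Steap4 (97.0 and 73.7 TPM) and Serpina9 (8.59 and 4.92 TPM). NFIB/X-dKO read 26.5 and 22.3 TPM for Steap4, 20.8 and 17.7 for Elovl4, 0.22 and 0.23 for Serpina9, and 0.30 and 0.37 for Cck.

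The short genes past the test were listed at more than 0.08 TPM in the NFIB-cKO libraries only. They met the minimum of 1 TPM in 2 libraries through that pair alone, so the difference itself brought them into the test, and their p values and their place among the 19 are no support for it. Gm25731 read 18.04 and 14.6 TPM in NFIB-cKO and at most 0.08 in the 6 other libraries (adjusted p = 0.0012). Mir7655 (6.11 and 8.70 TPM), Mir7059 (5.43 and 7.74), Mir7072 (4.89 and 4.64) and Gm22643 (2.65 and 2.55) were listed at 0 in all 6 (adjusted p = 0.00885, 0.00894, 0.00894 and 0.0406). The counts behind these levels were small. In NFIB-cKO 85 the expected counts were 47 for Gm25731, 6 for Gm22643, 3 each for Mir7655 and Mir7059 and 2 for Mir7072, and 0 in the other 4 libraries with gene tables. A count of 0 allows up to 3, so for Mir7655, Mir7059 and Mir7072 the difference was not detectable at this depth. Their reads come from libraries of polyadenylated RNA, in which mature microRNAs are not captured, and so do not measure these. Mir7655, Mir7059 and Mir7072 lie in introns of Mllt10, Cln3 and Nlrc5 on the same strand, and Gm22643 overlaps an exon of Maml2. Unlike the short genes, these hosts were expressed in both groups. Mllt10, Nlrc5 and Maml2 were higher in both NFIB-cKO libraries than in both NFIX-cKO libraries, as were 28.2% of all genes tested. Mllt10 read 30.9 and 35.9 TPM in NFIB-cKO and 26.5 and 27.5 in NFIX-cKO, Nlrc5 18.5 and 14.7 against 12.3 and 9.59, and Maml2 15.3 and 16.1 against 9.18 and 8.51. Cln3 overlapped, at 27.2 and 28.1 against 23.0 and 27.9 TPM. The hosts were also expressed in reference libraries where their short genes were listed at 0. In NFIB/X-dKO, Mllt10 read 33.6 and 38.1 TPM and Maml2 19.9 and 18. Nlrc5 read 12.5 and 15.8 TPM in WT and 11.9 and 10.4 in NFIB/X-dKO. The part of host reads in the counts of the short genes was not tested. Without NFIB-cKO 85 the adjusted p values were 0.0927 for Mir7655, 0.0994 for Mir7059, 0.112 for Mir7072 and 0.222 for Gm22643, and with a pseudocount of 0.1 they were 0.0738, 0.0878, 0.125 and 0.192. Without NFIB-cKO 81, Mir7072 had 0.0947 and Gm22643 0.347. The call of Gm22643 also ended without WT 34 (0.0601), WT 82 (0.0582), NFIX-cKO 32 (0.0968), NFIX-cKO 88 (0.0648), NFIB/X-dKO 33 (0.175) and NFIB/X-dKO 36 (0.171).

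RefSeq hairpins were matched for these 3 named microRNAs, and they are shown because the genes are among the calls. They lie at chr2:18057846-18057903 (plus strand), chr7:126579474-126579532 (minus strand) and chr8:94505046-94505105 (plus strand) on GRCm38.p6. Capitals mark the seed, bases 2 to 8, of each mature arm, and no 2 of the arms share a seed.
Mir7655: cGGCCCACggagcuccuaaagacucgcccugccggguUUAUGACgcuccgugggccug
Mir7059: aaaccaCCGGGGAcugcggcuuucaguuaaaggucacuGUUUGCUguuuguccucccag
Mir7072: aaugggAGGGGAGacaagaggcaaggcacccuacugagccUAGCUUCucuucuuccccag

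The pseudogenes and the long intergenic RNA Gm7125 went the other way: all 7 were near 0 or low in NFIB-cKO and WT, and high in NFIX-cKO. Gm10093 read 19.6 and 16.1 TPM in NFIX-cKO and 0.03 in both NFIB-cKO libraries (-4.19 ± 0.19, adjusted p = 0.000641). WT read 0 and 0.06 TPM and NFIB/X-dKO 21 and 20.3, so the 2 groups labelled with floxed Nfix and Cre had it and the others did not. Gm7125 had the same pattern, with 19.4 and 19.7 TPM in NFIX-cKO, 24.4 and 24.5 TPM with both genes deleted, and 0.12 and 0 in NFIB-cKO (adjusted p = 0.000641). Gm10182 read 62.1 and 50.4 TPM in NFIX-cKO and 5.32 and 4.39 in NFIB-cKO (adjusted p = 0.00454), Gm10036 102 and 96.3 against 10.9 and 11.9 (adjusted p = 0.0092), Gm12901 5.81 and 5.21 against 0.05 and 0 (adjusted p = 0.00788), and Gm15195 4.08 and 3.25 against 0 in both (adjusted p = 0.0169). All of these were high in NFIB/X-dKO as well. Gm10157 was the exception, and entered the test through the NFIX-cKO pair alone, at 4.85 and 5.23 TPM in NFIX-cKO and 0 in both NFIB-cKO and both NFIB/X-dKO libraries (adjusted p = 0.00894). The expected counts were larger here than for the short genes: 1499 and 1371 for Gm10093 in NFIX-cKO 32 and 88 and 2 in NFIB-cKO 85. EdgeR called Gm10093 (adjusted p = 0.0159) and no other gene (0.00508% of those it tested).

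**Figure D3:**
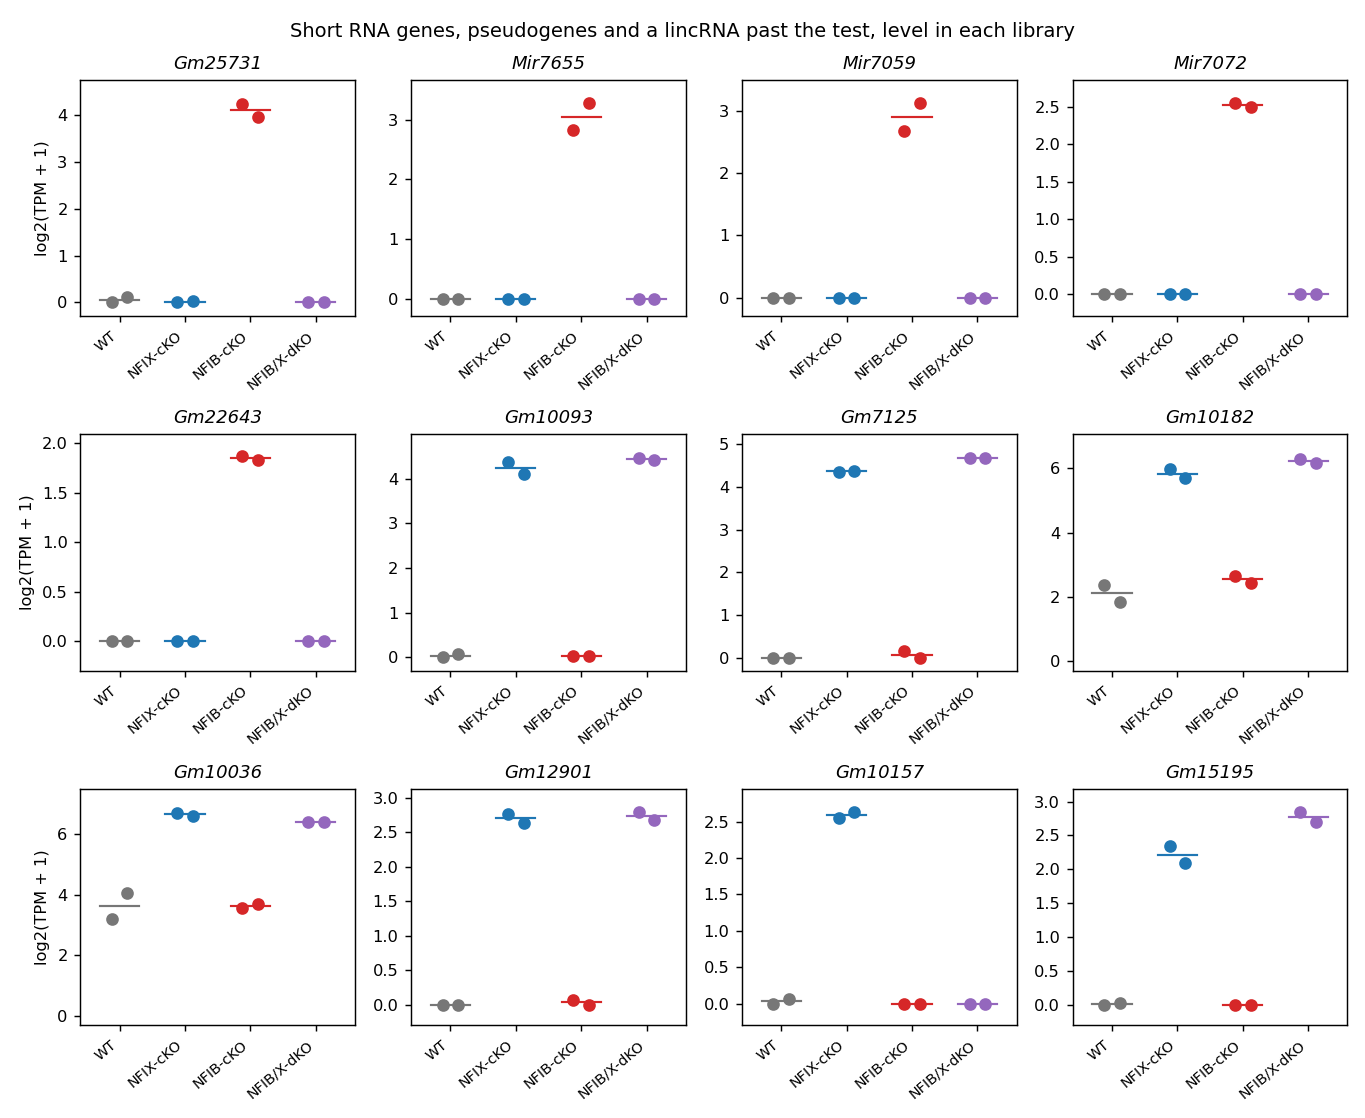
Level of the 12 other genes past the test, as log2(TPM + 1) with its own range in each panel. Points are libraries and bars are group means. The 5 short genes are at or near 0 outside NFIB-cKO, and the other 7 are high in NFIX-cKO and, apart from Gm10157, also where both genes are deleted.

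These features resemble other genes, 5 of them at 97.4% identity or more, so the reads assigned to them are uncertain. The closest protein-coding transcript in GENCODE M21 was Hdac1 for Gm10093 (99.4% identity over 1444 bases), Rpl11 for Gm10036 (99.3% over 534), Eif1 for Gm10157 (98.3% over 343), Rpl11 for Gm12901 (90.7%) and Gm10282 for Gm10182 (100%), Gm7125 (97.4%) and Gm15195 (90.1%), each of these over 273 bases. Hdac1 itself, a histone deacetylase gene, read 127 and 128 TPM in NFIB-cKO and 93.0 and 87.8 in NFIX-cKO, opposite to its copy (0.49 ± 0.12, adjusted p = 0.265). Rpl11 read 819 and 937 against 1083 and 1046 TPM, and Eif1 1414 and 1677 against 928 and 1672, so NFIX-cKO was the higher group for Rpl11 and the groups overlapped for Eif1. Gm10282 read 0 and 1.8 TPM against 0.17 and 0.13, and was at most 1.8 TPM in any library. A stretch of 60 bases from base 322 of the Hdac1 coding sequence, GENCODE M21 on GRCm38, shows how little separates the copies. The 1 differing base in the stretch is in capitals, and the coding sequence holds 9 such aligned positions in all.
Gm10093: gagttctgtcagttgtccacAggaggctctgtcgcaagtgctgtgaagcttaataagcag
Hdac1: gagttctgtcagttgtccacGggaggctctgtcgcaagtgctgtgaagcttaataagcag

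Gm10093, Gm7125 and Gm25731 passed in every limma alternative run, with adjusted p values of at most 0.043, and no other gene of the 19 did. For Gm25731, which entered the test through the NFIB-cKO pair alone, this passing is no support. Without NFIB-cKO 85 the adjusted p values rose to 0.0723 for Gm10182, 0.0927 for Gm12901, 0.0994 for Gm10157, 0.135 for Gm10036 and 0.171 for Gm15195. Without NFIB-cKO 81 they were 0.0555 for Gm12901, 0.085 for Gm10157, 0.122 for Gm10036 and 0.146 for Gm15195. Without NFIX-cKO 32, Gm10036 had 0.0586 and Gm15195 0.0648, and Gm15195 had 0.0988 and 0.0989 without NFIB/X-dKO 33 and 36. With only the 4 compared libraries, the calls of Gm12901, Gm10157, Mir7655 and Mir7072 (each 0.124), Mir7059 (0.132), Gm15195 (0.211) and Gm22643 (0.283) ended. With no filter those of Gm10036 (0.0567) and Gm15195 (0.0718) ended, with a pseudocount of 0.1 that of Gm10157 (0.105), and with the animal-number series as a covariate that of Gm22643 (0.0672).

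Setting NFIB/X-dKO against WT uses none of the 4 libraries compared here, though it shares the estimate of spread. Of the 19 genes, 12 passed there too, which is 63.2% of the 19, beside 2.88% of all genes tested. These 12 are 2.7% of the 445 genes called between NFIB/X-dKO and WT. The overlap was not tested. WT had no Cre listed and no YFP gate, so Cre differs in that contrast as well. The 6 protein-coding genes other than Smtn went in the same direction: the NFIB/X-dKO differences from WT were 4.35 for Mest (adjusted p = 0.000246), 2.41 for Timp3 (adjusted p = 0.00256), 1.83 for Tnc (adjusted p = 0.023), -3.82 for Krt24 (adjusted p = 0.00102), -1.64 for Rarres1 (adjusted p = 0.00746) and -1.93 for Cyp4b1 (adjusted p = 0.0233). Smtn did not pass there (0.18, adjusted p = 0.5). The other 6 genes, 5 pseudogenes and Gm7125, went in the opposite direction: they were lower in NFIB-cKO than in NFIX-cKO and higher in NFIB/X-dKO than in WT. For 6 of the 7 protein-coding genes (85.7%), all but Rarres1, the WT mean of log2(TPM + 1) lay nearer to NFIX-cKO and the NFIB/X-dKO mean nearer to NFIB-cKO. For Rarres1 both lay nearer to NFIX-cKO. That arrangement held for 22.5% of all genes tested, and for 27.1% of the 6165 genes in which the NFIB-cKO and NFIX-cKO libraries did not overlap.

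Against NFIX-cKO 88 alone, which leaves 1 NFIX-cKO library that is assumed to vary like the others, 21 genes passed (0.136%), 16 higher and 5 lower in NFIB-cKO, and 11 of them were among the 19. Protein-coding genes called only there were chosen here after their values were seen. They were 5, all higher in NFIB-cKO: Col1a1, given above, the matrix proteoglycan gene Bgn (2.26 ± 0.23, adjusted p = 0.0389), Igfbp7, which encodes a secreted binding protein (1.84, adjusted p = 0.0356), the semaphorin gene Sema3f (1.98, adjusted p = 0.0356) and the AMP deaminase gene Ampd3 (1.72, adjusted p = 0.048). NFIX-cKO 32 and 88 differed widely for these genes. Bgn read 177 and 130 TPM in NFIB-cKO and 106 and 30.8 in NFIX-cKO 32 and 88, Igfbp7 362 and 311 against 202 and 92.9, Sema3f 28.2 and 26.9 against 24.9 and 6.23, and Ampd3 85.2 and 72.8 against 55.4 and 23.2. For Bgn, Igfbp7, Sema3f and Ampd3, NFIX-cKO 32 was above both WT libraries. NFIX-cKO 88 was below both except for Bgn, where it lay between them. With both NFIX-cKO libraries the adjusted p was 0.379, 0.292, 0.466 and 0.356. Gm15459 (257 and 0.37 TPM in NFIX-cKO 32 and 88), Gm26825 (380 and 9.43) and Rbpsuh-rs3 (13.8 and 0) were also called against NFIX-cKO 88 alone, and that library was the lowest of the 8 for each.

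Gene lists were described by counts and medians beside those of all genes tested, whose median difference was 0.06 against both NFIX-cKO libraries, 0.16 against NFIX-cKO 88 and -0.05 against NFIX-cKO 32. For all genes tested, both NFIB-cKO libraries lay above both NFIX-cKO libraries in 28.2% and below both in 11.7%. Against NFIX-cKO 88 alone both lay above it in 58% and below it in 15.8%. Few list members passed, and the lists below were chosen with their results known.

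Lipid genes of the sebaceous gland were lower in NFIB-cKO as a list, without a member past the test. Of 27 such genes 0 passed in either direction, 19 lay below both NFIX-cKO libraries (70.4%, against 11.7% of all genes) and 1 above. The median difference was -0.60, and it was -0.41 against NFIX-cKO 88, -0.58 against NFIX-cKO 32 and -1.01 with a pseudocount of 0.1. Elovl6, a fatty acid elongase gene, read 14.1 and 10.9 TPM in NFIB-cKO and 31.8 and 26.0 in NFIX-cKO (-1.15 ± 0.18, adjusted p = 0.125). The elongase gene Elovl3 read 2.35 and 4.11 against 9.15 and 15.2 TPM (adjusted p = 0.222). Acsbg1, an acyl-CoA synthetase gene, read 15.5 and 18.1 against 42.7 and 33.9 TPM (adjusted p = 0.18), and Far2, which makes fatty alcohols for wax esters, 6.12 and 7.22 against 15.5 and 18.5 (adjusted p = 0.226). As the median over its genes, each taken relative to its own mean log2 level, the list lay at -0.36 and -0.31 for NFIB-cKO, 0.32 and 0.08 for NFIX-cKO, 0.44 and 0.81 for WT, and -0.33 and -0.53 for NFIB/X-dKO, so NFIX-cKO lay between WT and the other knockouts. Defining markers of sebocytes moved with it: 8 such genes summed to 13.0 and 17.4 TPM in NFIB-cKO and 41.7 and 40.9 in NFIX-cKO, and the 6 tested were all lower in NFIB-cKO. They were low throughout, with Pparg, a regulator of fat genes, at 0.67 and 0.73 against 2.14 and 1.64 TPM and 2 of the 8 below 1 TPM in all 4 libraries. The part of sebocytes in the sort was not tested.

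Genes of epidermal differentiation were lower in NFIB-cKO as a list, but their level also split all 8 libraries by the series of the animal numbers. Of 33 tested 0 passed, 20 lay below both NFIX-cKO libraries (60.6%) and 0 above. The median was -0.80, but -0.29 against NFIX-cKO 88 and -1.13 against NFIX-cKO 32, and, relative to each gene's mean, the 4 libraries with numbers in the 30s lay at 0.20 (WT 34), 0.72 (NFIX-cKO 32), 0.29 and 0.38 (NFIB/X-dKO). The 4 with numbers in the 80s lay lower, at -0.31 (WT 82), -0.58 and -0.54 (NFIB-cKO) and -0.23 (NFIX-cKO 88). Both NFIB-cKO libraries belong to the second series. With the series as a covariate the median difference of the list was -0.46. Tgm5, a transglutaminase gene, read 330 and 256 against 512 and 455 TPM (-0.73 ± 0.15, adjusted p = 0.222), Lce1a1, from a cluster of similar genes, 2.83 and 0.91 against 7.38 and 4.87 (adjusted p = 0.292), and Cnfn, a protein of the cornified envelope, 2.86 and 2.67 against 10.1 and 5.83 (adjusted p = 0.318). These, and Elovl4 above, were lower in NFIB-cKO than in either NFIX-cKO library. The same held for keratins of the differentiating interfollicular epidermis, with most of the gap in NFIX-cKO 32: Krt10 read 352 and 296 against 1596 and 396 TPM, and Krt1 72.7 and 67.2 against 444 and 102 (adjusted p = 0.448 and 0.395). The 9 defining markers of interfollicular and infundibular cells summed to 895 and 822 TPM for NFIB-cKO and to 3557 and 1027 TPM for NFIX-cKO 32 and 88. Their sum followed the series too, at 2197 TPM in WT 34 and 1489 in WT 82, and 2504 and 2265 for NFIB/X-dKO. Ly6a, which encodes the Sca-1 that the sort gated out, read 37.0 TPM in NFIX-cKO 32 and 10.9 in NFIX-cKO 88, against 7.55 and 6.46 in NFIB-cKO. T cell and antigen-presenting cell markers summed to 21.2 TPM in NFIX-cKO 32 and 6.94, 8.6 and 7.71 in the other 3. The part of these cells in the values of the list was not tested.

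**Figure D4:**
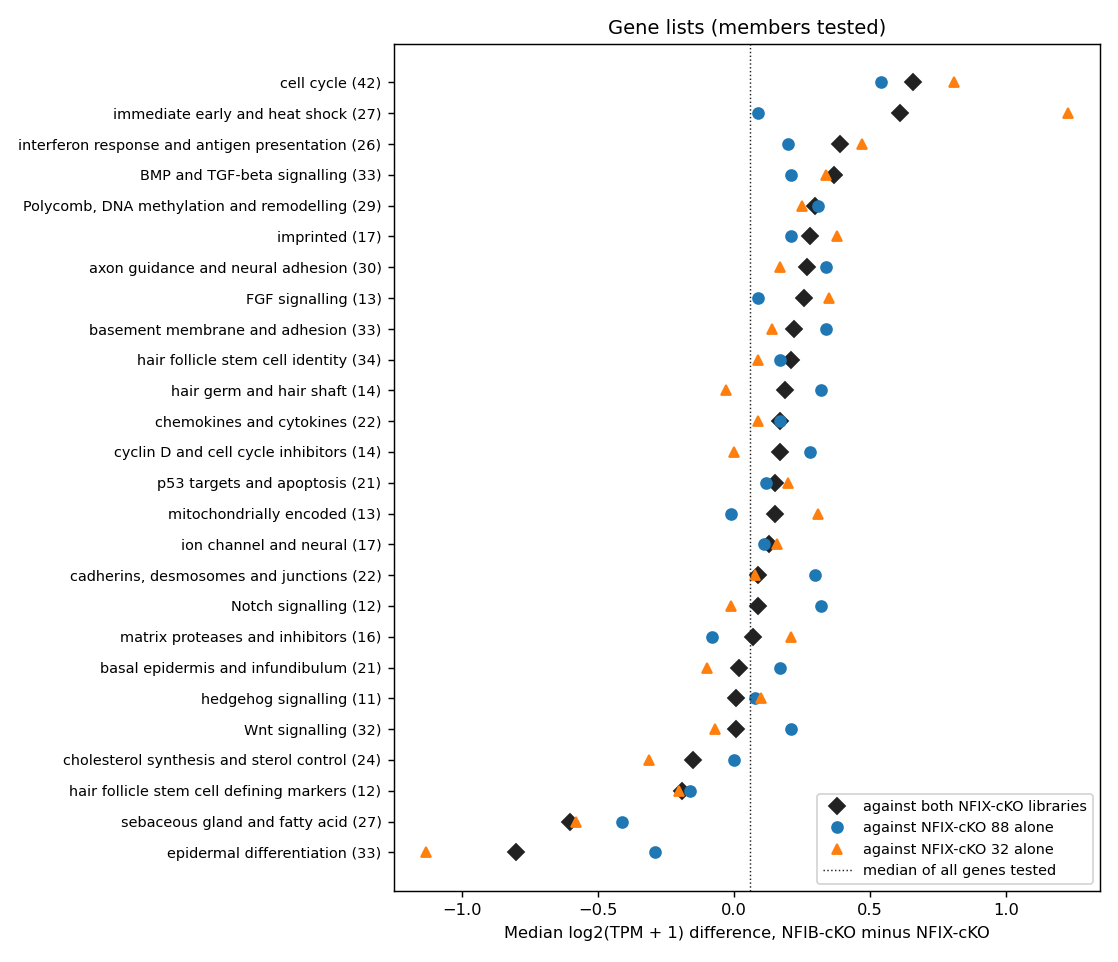
Median log2(TPM + 1) difference, NFIB-cKO minus NFIX-cKO, for each list with at least 10 genes tested, whose number stands in parentheses. Diamonds use both NFIX-cKO libraries, circles NFIX-cKO 88 alone and triangles NFIX-cKO 32 alone, and the dotted line is the median of all genes tested (0.06). Epidermal differentiation and the immediate early list show the widest gaps between the symbols.

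Genes of the cell division cycle were higher in NFIB-cKO, chiefly in 1 library. Of 42 tested 0 passed in either direction, 21 lay above both NFIX-cKO libraries (50%, against 28.2%) and 1 below, with a median of 0.66 and of 0.54 against NFIX-cKO 88. Prc1, which bundles the spindle midzone, read 21.5 and 44.5 TPM in NFIB-cKO 81 and 85 and 14.4 and 17.8 in NFIX-cKO (0.91 ± 0.35, adjusted p = 0.394). The mitotic kinase genes Aurka (5.37 and 12.01 against 3.69 and 4.41 TPM) and Bub1b (7.27 and 16.2 against 4.30 and 6.33 TPM) were likewise highest in NFIB-cKO 85, and Uhrf1, which maintains DNA methylation, read 18.8 and 21.6 against 16.1 and 13.6 TPM. The adjusted p values of these 3 were 0.409, 0.423 and 0.399. The list lay at 1.25 in NFIB-cKO 85, 0.32 in NFIB-cKO 81, and 0.06 and 0.18 in NFIX-cKO. Its median difference was 0.19 without NFIB-cKO 85 and 1.09 without NFIB-cKO 81.

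Among 33 genes of the basement membrane and adhesion, Tnc was the 1 that rose and 0 fell. Both NFIB-cKO libraries lay above both NFIX-cKO libraries in 15 (45.5%) and below in 2, with a median of 0.22, and above NFIX-cKO 88 in 26 (78.8%, against 58% of all genes). Beside Tnc and Egfl6, the type IV collagen gene Col4a5 read 37.5 and 32.5 against 21.2 and 19.6 TPM (0.75 ± 0.14, adjusted p = 0.195) and the integrin gene Itgb5 70.2 and 71.9 against 53.1 and 47.2 (adjusted p = 0.282). In the list of 16 matrix proteases and inhibitors, Timp3 rose and 0 fell. Pappa, a metalloproteinase gene that cleaves IGF-binding proteins, read 7.75 and 5.03 against 1.97 and 1.68 TPM (1.36, adjusted p = 0.189). The metalloproteinase genes Mmp15 (2.13 and 2.21 against 6.13 and 4.53 TPM) and Mmp2 (31.1 and 40.1 against 68.5 and 74.9 TPM) were lower in both NFIB-cKO libraries and did not pass (adjusted p = 0.236 and 0.361).

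The identity genes of hair follicle stem cells went in both directions. Of 34 tested 1 fell (Krt24) and 0 rose, 15 lay above both NFIX-cKO libraries (44.1%) and 11 below (32.4%), and the median was 0.21. On the lower side were the homeodomain gene Hopx (195 and 219 against 341 and 318 TPM, -0.67 ± 0.16, adjusted p = 0.265), the growth factor gene Ptn (1190 and 1042 against 1842 and 1762 TPM, adjusted p = 0.269) and the BMP antagonist gene Grem1 (109 and 84.98 against 197 and 182 TPM, adjusted p = 0.279). On the higher side were the transcription factor genes Tbx1 (358 and 346 against 202 and 221 TPM, adjusted p = 0.31), Sox9 (182 and 199 against 75.7 and 129 TPM, adjusted p = 0.361) and Nfatc1 (183 and 180 against 70.6 and 109 TPM, adjusted p = 0.361). Lhx2 (182 and 189 against 210 and 262 TPM, adjusted p = 0.434) and Lgr5, an R-spondin receptor gene (75.7 and 49.2 against 82.02 and 79.4 TPM, adjusted p = 0.494), were lower in NFIB-cKO.

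Signalling lists held no gene past the test. Of 33 BMP and TGF-β genes 14 lay above both NFIX-cKO libraries (42.4%) and 4 below, with a median of 0.37 and of 0.21 against NFIX-cKO 88. Against NFIX-cKO 88 alone, 57.6% of this list lay above it, about the 58% of all genes. Ltbp2, which binds latent TGF-β, was among the lower ones at 3.76 and 4.62 against 16.2 and 19.9 TPM (-1.87 ± 0.30, adjusted p = 0.137), and the BMP target gene Id4 among the higher ones at 65.2 and 76.3 against 39.98 and 43.5 TPM (adjusted p = 0.265). Of 32 Wnt genes 7 lay above and 7 below (21.9% each), with a median of 0.01 that was -0.02 after median-of-ratios scaling. Lgr6, an R-spondin receptor gene, read 7.27 and 8.03 against 36.1 and 18.4 TPM (-1.64 ± 0.29, adjusted p = 0.171), and Wif1, a secreted Wnt inhibitor gene, 103 and 157 against 54.8 and 58.6 TPM (1.15, adjusted p = 0.213). Of 13 FGF genes the receptor gene Fgfr2 had the smallest p, at 229 and 214 against 142 and 128 TPM (0.71 ± 0.12, adjusted p = 0.138). The Notch ligand gene Jag1 read 93.3 and 105 against 44.7 and 62.9 TPM (adjusted p = 0.281), with a median of 0.09 for the 12 Notch genes. The hedgehog binding gene Hhip read 0.81 and 1.21 against 3.20 and 2.35 TPM (adjusted p = 0.303), with a median of 0.01 for the 11 hedgehog genes, and of -0.03 after that scaling.

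Genes of axon guidance and neural adhesion and of cell junctions lay above both NFIX-cKO libraries more often than the 28.2% of all genes tested. Of 30 in the first list 0 passed, 15 lay above both NFIX-cKO libraries (50%) and 1 below, and the median was 0.27. The ephrin receptor gene Epha4 read 68.5 and 63.5 against 35.0 and 36.1 TPM (0.87 ± 0.16, adjusted p = 0.183), and Gap43, a growth cone gene, 3.10 and 1.98 against 0.65 and 0.64 (1.09, adjusted p = 0.265). Of 22 junction genes 0 passed and 10 lay above (45.5%). Their median was 0.09, near the 0.06 of all genes tested, and 0.30 against NFIX-cKO 88 (0.16 for all genes). Gja1, the gap junction gene of connexin 43, read 303 and 406 against 139 and 148 TPM (1.29 ± 0.22, adjusted p = 0.155). The mechanically gated channel gene Piezo2 read 15.8 and 20.5 against 10.7 and 8.58 TPM (adjusted p = 0.265), while WT had 1.79 and 2.18 and NFIB/X-dKO 54.1 and 57.7.

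Of 29 genes of Polycomb, DNA methylation and chromatin remodelling, 0 passed, 18 lay above both NFIX-cKO libraries (62.1%, against 28.2%) and 0 below. The median was 0.30, and 24 lay above NFIX-cKO 88 (82.8%, against 58%). The differences were small, as for Hdac1 above. Arid1a, a subunit of the SWI/SNF remodelling complex, read 24.5 and 25.6 against 17.6 and 18.03 TPM (0.47, adjusted p = 0.314), the methyltransferase gene Kmt2d 32.3 and 29.5 against 21.6 and 21.8 (adjusted p = 0.318), and Jarid2, a partner of Polycomb repressive complex, 8.99 and 10.97 against 6.75 and 5.08 (adjusted p = 0.337). WT was near NFIB-cKO for Arid1a (22.9 in both libraries) and overlapped it for Kmt2d (31.9 and 35.5).

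The list of immediate early genes and heat shock genes, known to respond quickly to stimuli and stress, was lowest in NFIX-cKO 32. Of 27 tested 0 passed and 10 lay above both NFIX-cKO libraries (37%). The median was 0.61 against both, 0.09 against NFIX-cKO 88, 1.23 against NFIX-cKO 32 and 0.33 with the animal-number series as a covariate. Btg2, an early response gene that restrains division, read 1159 and 775 against 343 and 623 TPM (1.03 ± 0.29, adjusted p = 0.318), Dusp1, a MAP kinase phosphatase gene, 2247 and 1949 against 891 and 1539 (adjusted p = 0.337), and Junb 1416 and 1568 against 796 and 1219 (adjusted p = 0.39). The list lay at -0.94 in NFIX-cKO 32, 0.28 in NFIX-cKO 88, and 0.15 and 0.23 in NFIB-cKO, with WT at 0.35 and 0.58 and NFIB/X-dKO at -0.42 and -0.21. Of 26 interferon response and antigen presentation genes 14 lay above both NFIX-cKO libraries (53.8%) and 3 below, with a median of 0.39 and of 0.20 against NFIX-cKO 88. Against NFIX-cKO 88 alone, 53.8% lay above it (58% of all genes) and 23.1% below it (15.8% of all genes), so this list did not lean upwards there. Tapbp and Tap2, which load peptides onto class I molecules, read 83.7 and 71.9 against 56.0 and 54.2 TPM (adjusted p = 0.299) and 65.1 and 78.4 against 46.9 and 53.5 (adjusted p = 0.337). H2-Aa of the same list went the other way, at 3.80 and 4.89 against 20.5 and 6.91 TPM (adjusted p = 0.359). All 7 melanocyte markers tested were above both NFIX-cKO libraries, as were 28.2% of all genes, and 0 passed. The 10 on the list, 3 of them below 1 TPM in all 4 libraries, summed to 115 and 86.9 TPM in NFIB-cKO and 68.7 and 66.1 in NFIX-cKO. WT 34 and 82 summed to 68.7 and 87.8 TPM and NFIB/X-dKO to 81.9 and 87.6. By this sum, only NFIB-cKO 81 stood above the reference libraries. Mitf made up most of the sum, at 79.6 and 53.5 TPM in NFIB-cKO and 45.3 and 48.1 in NFIX-cKO. The median over the 7 tested, each relative to its mean log2 level, was 0.48 and 0.27 in NFIB-cKO. It was lower in WT (-0.61 and 0.02) and in NFIB/X-dKO (0.23 and 0.07). The part of melanocytes in the sort was not tested.

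**Figure D5:**
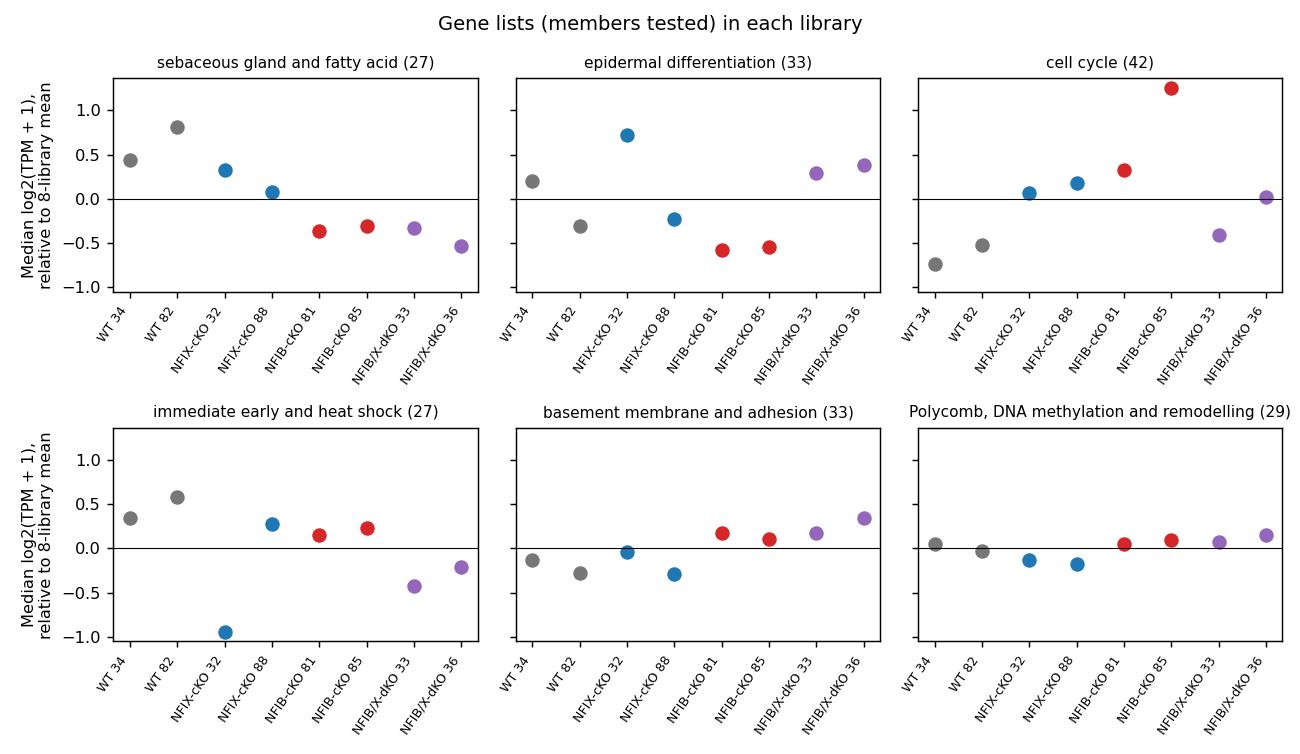
Median over the members tested of 6 lists, as log2(TPM + 1) relative to each gene's mean over the 8 libraries, for each library. Sebaceous gland and fatty acid genes are below 0 in both NFIB-cKO and both NFIB/X-dKO libraries, NFIX-cKO 32 stands apart for immediate early genes at -0.94, and NFIB-cKO 85 for cell cycle genes at 1.25.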

How the data were processed

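Levels were read from the series-wide table of TPM values that the authors deposited, with 1 column for each of the 8 libraries, all matched by name to a library (0 columns were unmatched). Expected counts (RSEM's estimated counts per gene) were taken from the gene tables that the authors deposited for 5 libraries, and rounded to whole numbers. Per the submitters' processing notes, RSEM 1.2.30 and Bowtie2 2.2.9 were used with mm10. Whether counting used strand, and the annotation, are not given in the sources used here. Cells were sorted from back skin, and libraries were made from polyadenylated RNA, per the labels' protocols. The 92 spike-in features were at 0 TPM and were left out. Counting depth limits precision and is known only for the libraries with gene tables.

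Differences were tested with limma 3.58.1 (R 4.3.3, trend) on log2(TPM + 1) over all 8 libraries in 4 groups, with 4 residual and 3.1 prior degrees of freedom, for genes at 1 TPM or more in at least 2 libraries. Differences on this scale understate the change of low genes. Benjamini-Hochberg adjustment ran over all 15434 genes tested, and a call needed an adjusted p under 0.05. Alternatives were no filter, a pseudocount of 0.1, median-of-ratios scaling, only the 4 compared libraries, the animal-number series as a covariate, leaving out each library, and edgeR 4.0.16 (quasi-likelihood) or DESeq2 1.42.0 on the expected counts. The limma, edgeR and DESeq2 code was first tested on simulated data.

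The rule named the 12 largest rises and falls past the test with a mean of at least 5 TPM in the higher group and no overlap between groups, without predicted genes, pseudogenes and microRNA. A direction with under 5 such genes was filled with the next 5 by p, stated as not passing. Added were the nuclear factor I genes, Cd34, Itga6, Krt15, Sox9, Lhx2, Lgr5, Krt24 and Esr1, and up to 4 genes of smallest p per list described. Non-coding calls were taken up after their values were seen. The comparison, its genes and the lists were chosen with earlier results of these data known. Sequences came from RefSeq (GRCm38.p6) and GENCODE M21, and copies were aligned with blastn 2.17.0.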

Additional observations from a re-analysis of the deposited data

How the results depend on the processing

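The main count was 19 genes past the test (9 higher, 10 lower), and 12 of them also passed between NFIB/X-dKO and WT. Leaving out each library in turn gave 3 to 34 genes, 1 to 16 higher and 2 to 22 lower, and 2 to 22 that also passed between NFIB/X-dKO and WT. There were 3 without NFIB-cKO 85, 12 each without NFIB-cKO 81, NFIB/X-dKO 33 and NFIB/X-dKO 36, 29 without WT 34, 31 without WT 82 and 34 without NFIX-cKO 88. With only the 4 compared libraries, 9 genes passed, 1 of them higher. With no filter, 20 passed, 7 higher and 13 lower, and 7 also passed between NFIB/X-dKO and WT. EdgeR called 1 gene, lower, and 0 higher with either TMM or median-of-ratios factors, and 7, all lower and 0 higher, with no filter. At an unadjusted p under 0.05 edgeR counted 2045 genes, and DESeq2 called 400, 224 higher and 176 lower. In these changes of the counts the cause was not tested. None of the 19 called genes changed direction in any alternative that could test it. Because the compared groups overlapped for none of the 19, leaving out a library could not reverse a direction, so this is no support. The overlap with NFIB/X-dKO against WT was not run for the 4-library, edgeR and DESeq2 fits. No paired analysis was possible because the replicate numbers are animal numbers and the groups share none.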

Other observations

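Several further lists held no gene past the test in limma. Of 24 genes of cholesterol synthesis, 0 lay above both NFIX-cKO libraries and 4 below (16.7%), with a median of -0.15. Of 14 hair germ and hair shaft genes 3 lay above and 3 below, with a median of 0.19. Of 21 p53 target and apoptosis genes 7 lay above (33.3%) and 2 below, with a median of 0.15, and Plk2, a polo-like kinase gene, read 71.1 and 80.8 against 28.6 and 48.6 TPM (adjusted p = 0.265). Of 22 chemokine and cytokine genes 6 lay above (27.3%) and 4 below, and the chemokine gene Cxcl14 read 8871 and 8446 against 3920 and 4978 TPM (adjusted p = 0.359).

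The largest fitted differences of named predicted genes did not pass and varied within groups. Gm8730 was at 0.44 and 0.58 TPM in NFIB-cKO and 1054.46 and 567.49 in NFIX-cKO, but at 479.95 and 0.21 in WT 34 and WT 82 (adjusted p = 0.295). Gm9625 had the same pattern, with 0.29 and 0.14 against 562.22 and 236.1 TPM, and 194.14 and 0.05 in WT (adjusted p = 0.283). Gm15772 read 1143.77 TPM in NFIB-cKO 81, 0.82 in NFIB-cKO 85, and 0 and 1239.82 in the NFIB/X-dKO pair (adjusted p = 0.65). These genes were chosen after their values were seen.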
